A study of Mus musculus with 16 samples.

Results

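The type I interferon response genes described here are a list of 39 symbols, of which 37 had a row in all 16 matrices of the series, among 32286 genes. The other 2 were not analysed here. The members were listed by symbol, as genes widely known to be induced by interferon α and β, and no measured value enters the rule, but the list was drawn up with earlier results of these data known. The 37 members are 3 nucleic acid sensors, 4 transcription factors, 4 Ifit genes, 5 oligoadenylate synthetase genes, 10 other antiviral effectors, 7 genes of Isg15, ubiquitin and ADP-ribose biology, and 4 further induced genes.

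BALB/c mice carrying 2208L, a Trp53-null triple-negative mammary tumor kept by transplantation as 1 line, were given IACS-70654, an inhibitor of the bromodomain that CBP and P300 use to bind acetylated histones. Single-cell libraries of live tumor cells came from mice given vehicle, IACS-70654, anti-PD1 antibody, or IACS-70654 and anti-PD1 together (combination), with 1 library per condition. Marrow libraries came from 2208L-bearing mice given vehicle or IACS-70654, and from untreated mice without a tumor, which the labels call ctrl and the text below calls WT. Marrow was sorted as CD45+ Ter119- cells and as lin- c-Kit+ CD45+ progenitors, with 2 libraries per group in each sort, and every library pooled the cells of 3 mice. The series record gives 7 days of treatment for the treated mice, whereas the published text gives a slightly shorter course for the marrow experiment. Vehicle and WT mice differed in tumor, implantation and dosing together, so these cannot be told apart.

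Type I interferons bind the receptor pair IFNAR1 and IFNAR2, which activates the kinases JAK1 and TYK2. These phosphorylate STAT2, which joins IRF9 in a complex that binds the interferon-stimulated response element (ISRE) in promoters. The induced proteins block viral RNA and protein synthesis, sense foreign nucleic acids and, like USP18 and SOCS1, dampen the signal. Myeloid progenitors and neutrophils keep part of this set on without infection, and the cytosolic sensors can start it inside tumor cells.

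Many members sit in gene clusters. On mm10 (RefSeq, GRCm38.p6), Ifit2, Ifit3, Ifit3b and Ifit1 lie on chromosome 19 between 34550550 and 34650009, Oasl2 and Oasl1 on chromosome 5 between 114896926 and 114937911, Oas2, Oas3 and Oas1a on the same chromosome between 120730333 and 120907544, and Rsad2 with its neighbour Cmpk2 on chromosome 12 between 26442743 and 26479837. Of the 37 members, 28 had a promoter in the RefSeq table, from 250 bases before to 50 after the start. The ISRE core GAAANNGAAA, searched on both strands, occurred in 13 of these 28 and in 3.44% of all 32851 promoters. The STAT core TTCNNNGAA, searched in the same way, occurred in 7 of the 28 and in 8.3% of all promoters. The 28 members had 34 promoters, and a match in any of them counted, whereas the percentages are over single promoters. In Bst2 the matches of the 2 motifs overlapped. The 160 bases before the transcript start that the table uses are shown for 7 members because the results below turn on them, with ISRE matches in capitals. For Ifit1, Isg15 and Rsad2 this start is the outer end of the annotated gene, and for Oasl2, Ifit3, Ifit3b and Slfn5 it lies 8, 410, 427 and 753 bases inside it. They stand on chromosome 19 (Ifit1, chr19:34640729-34640888, plus strand, Ifit3, chr19:34583369-34583528, plus strand, and Ifit3b, chr19:34607797-34607956, plus strand), chromosome 4 (Isg15, chr4:156200819-156200978, minus strand), chromosome 12 (Rsad2, chr12:26456453-26456612, minus strand), chromosome 11 (Slfn5, chr11:82951942-82952101, plus strand) and chromosome 5 (Oasl2, chr5:114896774-114896933, plus strand).
Ifit1: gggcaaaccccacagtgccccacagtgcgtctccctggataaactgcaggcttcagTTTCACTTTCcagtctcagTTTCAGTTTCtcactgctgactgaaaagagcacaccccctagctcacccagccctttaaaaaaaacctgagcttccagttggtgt
Ifit3: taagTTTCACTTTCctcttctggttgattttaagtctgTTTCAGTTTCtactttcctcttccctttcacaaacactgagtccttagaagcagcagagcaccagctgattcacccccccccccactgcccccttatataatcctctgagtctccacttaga
Ifit3b: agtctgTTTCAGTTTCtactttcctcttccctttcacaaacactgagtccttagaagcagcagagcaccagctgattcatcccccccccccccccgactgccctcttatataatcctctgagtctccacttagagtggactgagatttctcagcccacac
Isg15: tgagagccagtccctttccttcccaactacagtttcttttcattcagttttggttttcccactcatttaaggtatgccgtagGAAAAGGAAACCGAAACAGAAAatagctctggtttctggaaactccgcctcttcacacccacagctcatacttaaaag
Rsad2: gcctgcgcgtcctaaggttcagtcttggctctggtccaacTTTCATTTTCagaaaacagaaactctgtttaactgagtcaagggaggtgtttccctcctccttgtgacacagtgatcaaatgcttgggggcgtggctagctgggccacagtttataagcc
Slfn5: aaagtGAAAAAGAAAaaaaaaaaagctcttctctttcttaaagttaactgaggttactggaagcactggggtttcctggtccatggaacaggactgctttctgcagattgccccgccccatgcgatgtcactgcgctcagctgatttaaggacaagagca
Oasl2: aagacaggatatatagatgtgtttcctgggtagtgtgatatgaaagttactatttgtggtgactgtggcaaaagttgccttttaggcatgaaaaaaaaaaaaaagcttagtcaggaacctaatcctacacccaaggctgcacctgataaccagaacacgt
The Isg15 promoter held 3 overlapping matches, Ifit1 and Ifit3 held 2 each in this stretch, Ifit3b, Rsad2 and Slfn5 held 1, and these letters did not occur in the Oasl2 stretch. Ifit3b had a further match outside the stretch shown, at -188 to -179 from the start. Ifit3 and Ifit3b shared an unbroken run of 169 bases within the 300-base windows. Their transcripts are near-identical copies too, so reads may have been split or dropped between them and their values are uncertain. Dtx3l and Parp9 overlap at their annotated ends, and how reads from the overlap were assigned was not examined here.

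Tumor libraries held 1974 to 5064 kept cells, CD45+ libraries 4394 to 6154 and c-Kit+ libraries 2836 to 7517, with median UMIs per cell of 4724 to 6332, 4113 to 6596.5 and 6712 to 9512. Libraries of the same sort shared 0 cell barcodes. Cell names below are marker-like classes: clusters were named from lists of marker genes, with members and other pathway genes kept out of the clustering. Median UMIs per cell were higher in IACS-70654 than in vehicle CD45+ libraries (6534 and 6596.5 against 5330.5 and 5328), so levels are given as counts per 1000000 UMIs of a class in a library (CPM).

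In tumor cells, 33 of the 37 members had over 2 times the level in the IACS-70654 library than in the vehicle library, and none was lower by that factor. Over all 12489 genes with at least 20 UMIs in this pair, 7.25% were higher by that factor and 3.13% were lower. The median log2 ratio was 1.8 over the members and 0.14 over all genes. In the combination against the anti-PD1 library, 29 of 37 members were over 2 times higher (6.58% of genes) and 0 were lower (3.91%), with a median of 1.74 against 0.07. The same 29 members were higher in both pairs, against 3.41% of all genes. The 4 libraries held 371 (vehicle), 744 (IACS-70654), 487 (anti-PD1) and 1155 (combination) tumor cells. There was 1 library per condition and no test between conditions was run (a model with inhibitor and antibody as separate terms would leave 1 residual degree of freedom and was not fitted), and the intervals given are exact 95% intervals that cover counting error only.

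The Ifit proteins bind viral RNA and block its translation. Ifit3 stood at 3.07 CPM (1.82 to 4.86) in the vehicle library, 59.5 (55.0 to 64.2) with IACS-70654, 4.57 (3.22 to 6.3) with anti-PD1 and 91.0 (86.5 to 95.6) with the combination. Its log2 ratio was 4.27 (3.60 to 5.04) and 4.31 (3.85 to 4.83) in the 2 pairs. Ifit3 had the largest ratio of the members in both. Ifit2 was at 3.93, 40.3, 3.71 and 65.8 in the same order of libraries, log2 ratios 3.36 (2.76 to 4.03) and 4.15 (3.63 to 4.72). Ifit1 was at 21.3, 103, 18.2 and 134, with log2 ratios of 2.28 and 2.89. All 4 Ifit genes thus stood apart between the libraries with and without the inhibitor, with intervals that did not meet.

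Cmpk2, a mitochondrial nucleotide kinase encoded beside Rsad2, was at 3.07 CPM with vehicle, 39.3 with IACS-70654, 4.08 with anti-PD1 and 59.0 with the combination, log2 ratios 3.67 (3.00 to 4.44) and 3.86 (3.36 to 4.4). Rsad2 (viperin), which makes a chain-terminating nucleotide, was at 24.4, 172, 21.0 and 239, log2 ratios 2.82 and 3.51. Both genes of this pair were low without the inhibitor and high with it. Usp18, the protease that removes Isg15 and damps the receptor, was at 5.29, 60.7, 10.3 and 73.6, with log2 ratios of 3.52 (3.00 to 4.09) and 2.84 (2.52 to 3.18). Gm4951 was at 8.54, 85.6, 11 and 94.2, log2 ratios 3.33 (2.91 to 3.77) and 3.10 (2.79 to 3.42). Trim30a was at 4.95, 42.1, 6.80 and 52.8, log2 ratios 3.09 (2.55 to 3.68) and 2.96 (2.57 to 3.38). With Ifit3, Ifit2 and Cmpk2, these 3 had the largest ratios to vehicle of the members.

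Isg15, the ubiquitin-like modifier, was at 77.7, 338, 93.8 and 375 CPM, and Bst2 (tetherin), which holds budding virus at the membrane, at 187, 573, 199 and 665. Among the factors, Irf7 had log2 ratios of 2.10 and 2.07, Stat2 1.45 and 1.43, and Irf9 1.06 and 0.74. Irf1, the factor also induced by interferon γ, had 0.38 (0.23 to 0.53) and 0.65 (0.52 to 0.77), the smallest ratio to vehicle of all 37. Among the sensors, Ifih1 (MDA5) had 1.5 and 1.13, Zbp1 1.44 and 1.48, and Dhx58 (LGP2) 1.13 and 1.90. The members that stayed within 2 times in the IACS-70654 pair were Irf1, Dtx3l (0.43), Lgals3bp (0.48) and Parp9 (0.87). The members just inside the threshold were Irf9 and Dhx58. In the combination pair Slfn5, Irf9, Eif2ak2 and Ifi27l2a were within 2 times too, and the interval of Slfn5 held 0 (0.39, -0.19 to 1.00).

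**Figure D1:**
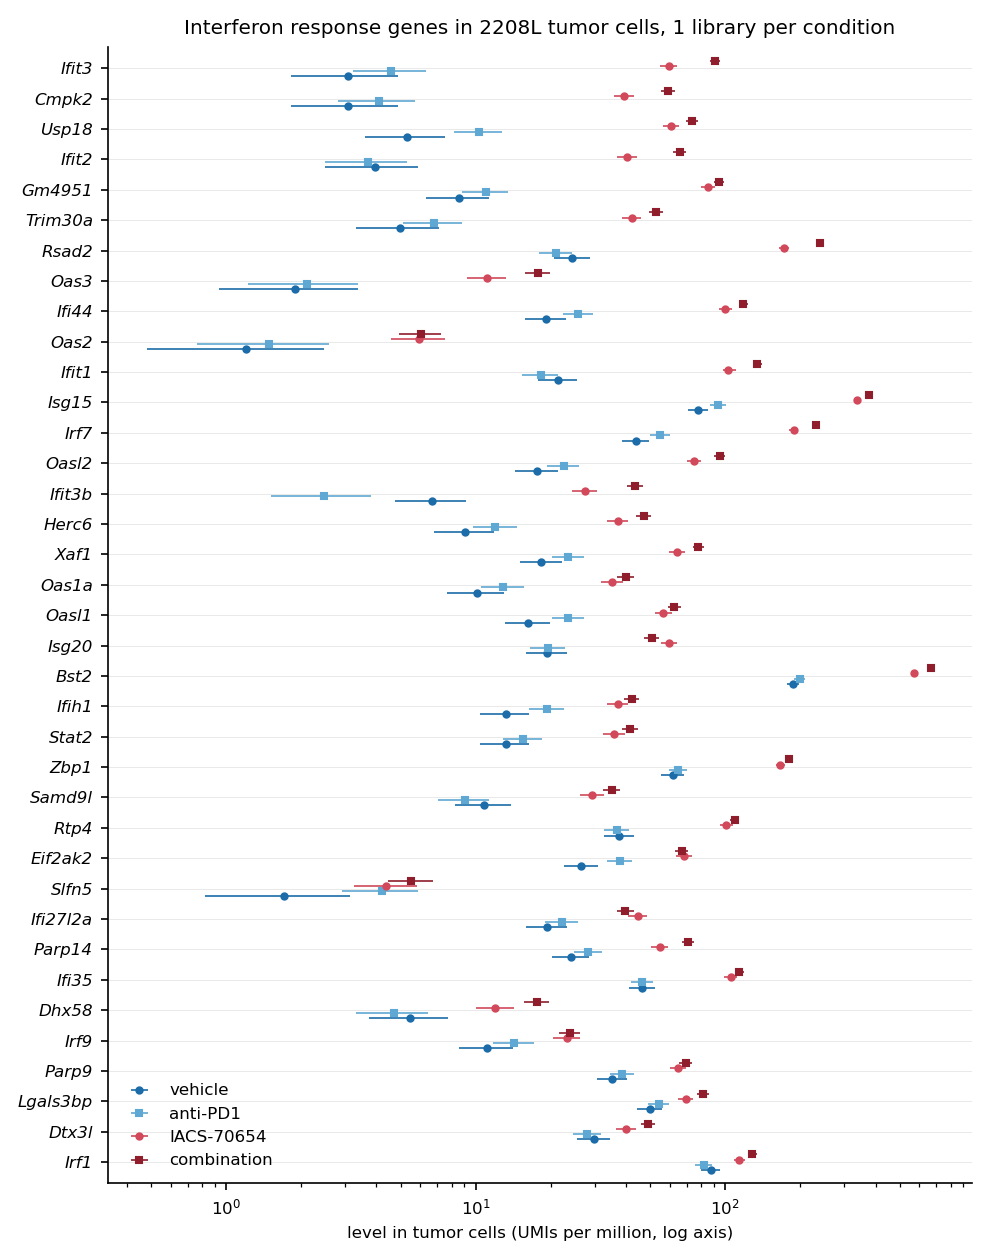
Level of each of the 37 members in 2208L tumor cells on a log axis, in CPM, with exact 95% Poisson intervals of counting error; circles are vehicle and IACS-70654, squares anti-PD1 and combination. For Ifit3 the points with the inhibitor stand at 59.5 and 91.0 against 3.07 and 4.57 without it, and for Irf1 at the bottom the 4 points stand close together.

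With anti-PD1 alone few members stood apart from vehicle in tumor cells. Of 36 members with at least 20 UMIs, Slfn5 was over 2 times higher than with vehicle (1.71 and 4.2 CPM, 1.40% of genes higher) and Ifit3b over 2 times lower (6.66 and 2.47, 0.736% of genes lower). The Ifit3b value rests on 39 and 20 UMIs.

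Members were higher in each tumor cell cluster that could be compared, in differing numbers. In the 3 clusters with at least 20 cells in each library of the pair, 17 of 28, 26 of 35 and 22 of 35 members were over 2 times higher with IACS-70654 than with vehicle, and 0 lower, against 5.74% to 10.9% of genes higher. For the combination against anti-PD1 the counts in 6 clusters were 27 of 36, 10 of 37, 21 of 31, 31 of 36, 11 of 35 and 18 of 35, against 4.11% to 11.5% of genes, with 1 of 37 and 4 of 35 members lower in the second and the fifth of these clusters, where 4.64% and 5.89% of genes were lower. Leaving out a cluster led by Krt17, Il24 and Cav1, which has the interferon-induced Apol9a and Gbp4 among its 10 leading genes, left 29 and 28 members higher in the 2 pairs. Leaving out a cluster held mostly by the vehicle and anti-PD1 libraries left 28 and 28. The fifth of the 6 clusters had the neutrophil granule genes Camp and Ngp among its 10 leading genes, beside the epithelial factor gene Ehf, and held 12 cells with vehicle, 149 with IACS-70654, 24 with anti-PD1 and 205 with the combination. Its 8 epithelial markers summed to 4974 CPM, and its 8 neutrophil markers to 638. In the other 5 clusters compared these were 4589 to 14032 and 114 to 169. Leaving it out left 31 and 30 members higher. These 3 alternatives were chosen after the data were seen, and the share of all genes higher in them is not given. A cluster led by Krt14 and Krt6a held 0 cells with vehicle, 26 with IACS-70654, 0 with anti-PD1 and 48 with the combination. Its epithelial, neutrophil and macrophage markers summed to 25811, 1318 and 4992 CPM, and those of a cluster led by Ptn and Krt19 to 10487, 111 and 3688. Neither could be compared within itself, both stayed in the class, and no alternative left them out. The 8 macrophage markers summed to 692 CPM in tumor cells of the vehicle library, 1328 with IACS-70654, 742 with anti-PD1 and 1132 with the combination, with none of the 8 at 0. In the same order the 6 dendritic progenitor markers summed to 94.1, 281, 108 and 192 CPM and the 8 neutrophil markers to 295, 109, 223 and 261, with none at 0, and the 8 T and NK markers to 5.81, 15.1, 13 and 9.93, with 1 at 0. The part of these markers in the result was not tested. The 8 epithelial markers summed to 5704 to 8259 CPM in the 4 libraries.

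Of 46 other genes of the pathway, 32 had at least 20 UMIs in tumor cells of the vehicle pair, 9 were over 2 times higher with IACS-70654 and 0 lower. Socs1, a brake on the receptor kinases, was at 8.37 CPM with vehicle, 26.9 with IACS-70654, 9.88 with anti-PD1 and 31.8 with the combination. The chemokine Cxcl9, which draws T cells and answers mainly to interferon γ, was at 1.54, 77.9, 1.61 and 54.9, and Cxcl10 at 46.3, 232, 18.4 and 260. The receptor genes Ifnar1 and Ifnar2 had log2 ratios to vehicle of -0.10 (-0.43 to 0.23) and -0.04 (-0.21 to 0.12), with intervals that held 0. Ifnb1, the ligand interferon β, had 81 UMIs in tumor cells of the combination library and 0 in the other 3, but all 81 came from 1 of 1155 cells. In macrophages it had 9 UMIs with IACS-70654 and 2 with anti-PD1, each from 1 cell, so no level of the ligand per class was read from these counts.

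The ratios were smaller in tumor macrophages. With IACS-70654 against vehicle 4 of 37 were over 2 times higher (2.79% of genes) and 0 lower (3.68%), with a median log2 ratio of 0.51 against 0.0 for all genes and 34 of 37 ratios above 0. With the combination against anti-PD1 1 was higher (3.30%) and 0 lower (4.75%), median 0.48 against -0.05. None of the members was higher in both pairs, against 0.602% of genes. The libraries held 607, 2207, 441 and 2060 macrophages in the order vehicle, IACS-70654, anti-PD1 and combination. In the same order the 8 macrophage markers summed to 67214, 97552, 61568 and 100324 CPM in this class and the 6 dendritic progenitor markers to 15305, 6219, 12662 and 6686, and their part in the result was not tested.

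The 4 genes higher than vehicle were Ifit2, Ifit3, Rsad2 and Usp18. Ifit2 was at 34.4 CPM with vehicle, 80.7 with IACS-70654, 61.8 with anti-PD1 and 86.1 with the combination, log2 ratio 1.23 (0.99 to 1.48) to vehicle. Ifit3 was at 46.9, 100, 77.6 and 107, log2 ratio 1.1 (0.89 to 1.31). For these genes, and for Rsad2 (55.5, 114, 124 and 108), the anti-PD1 library stood above the vehicle library. Usp18 was at 23.0, 47.1, 26.6 and 50.6, and here the anti-PD1 library stood with vehicle. Ifit1 (27.3, 51.7, 57.4 and 46.2) was the fifth by ratio, and Oas2, which makes the oligoadenylates that activate RNase L, the sixth (16.1, 29.3, 15.0 and 31.6). Oas2 was the 1 member past the factor in the combination pair. Ifi27l2a and Bst2 had the lowest ratios to vehicle, and here the inhibitor libraries were the lower ones. Ifi27l2a stood at 1260, 832, 1229 and 883 and Bst2 at 494, 367, 426 and 395. Scaling by TMM, which moved the count in the combination pair from 1 to 5, left the vehicle pair at 4.

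In tumor monocytes 2 of 37 members were over 2 times higher than with vehicle (6.08% of genes) and 0 lower (2.78%). Against anti-PD1, 2 were higher (5.47%) and 4 lower (3.10%). Gm4951 was higher in both pairs, at 8.15 CPM with vehicle, 25.5 with IACS-70654, 9.81 with anti-PD1 and 27.5 with the combination. Usp18 was at 28.5, 63.1, 56.6 and 56.3. Behind these 2, the largest ratios to vehicle were those of Oas2 (0.91), Ifit1 (0.87), Oasl1 (0.84) and Herc6 (0.75), and for Ifit1 and Oasl1 the anti-PD1 library was above vehicle as well (70.9 against 40.8, and 106 against 61.2). Rsad2 was highest with anti-PD1 and lowest with the combination, at 161, 211, 375 and 117, log2 ratio -1.68 (-1.85 to -1.51) in that pair. Isg20, an exonuclease, followed with 53.8, 45.3, 105 and 52.0, and Cmpk2 and Ifit3b were the other 2 lower members.

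Tumor neutrophils held few UMIs per cell, with medians of 1201 to 1344.5. Of 34 members with enough UMIs, 2 were over 2 times higher than with vehicle (5.31% of genes) and 1 lower (5.40%), and against anti-PD1 2 of 35 were higher (4.97%) and 0 lower (5.78%). Ifi44 was at 9.89 CPM (3.63 to 21.5), 67.6 (43.7 to 99.8), 12.5 and 29.5 in the order of libraries above. Eif2ak2 (PKR), which stops translation on double-stranded RNA, was at 31.3, 105, 70.0 and 49.2. Dtx3l was at 92.3, 45.9, 87.6 and 121, lower in the IACS-70654 library only, on 17 UMIs. Ifi27l2a, with the most UMIs of these, was at 927, 1760, 863 and 1793, higher in both libraries with the inhibitor, whereas in macrophages it was lower in both. Zbp1 (147, 292, 130.0 and 212), Oas1a (80.8, 149, 66.3 and 86.1) and Irf9 (62.7, 111, 70.0 and 73.8) followed by ratio to vehicle, within 2 times.

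**Figure D2:**
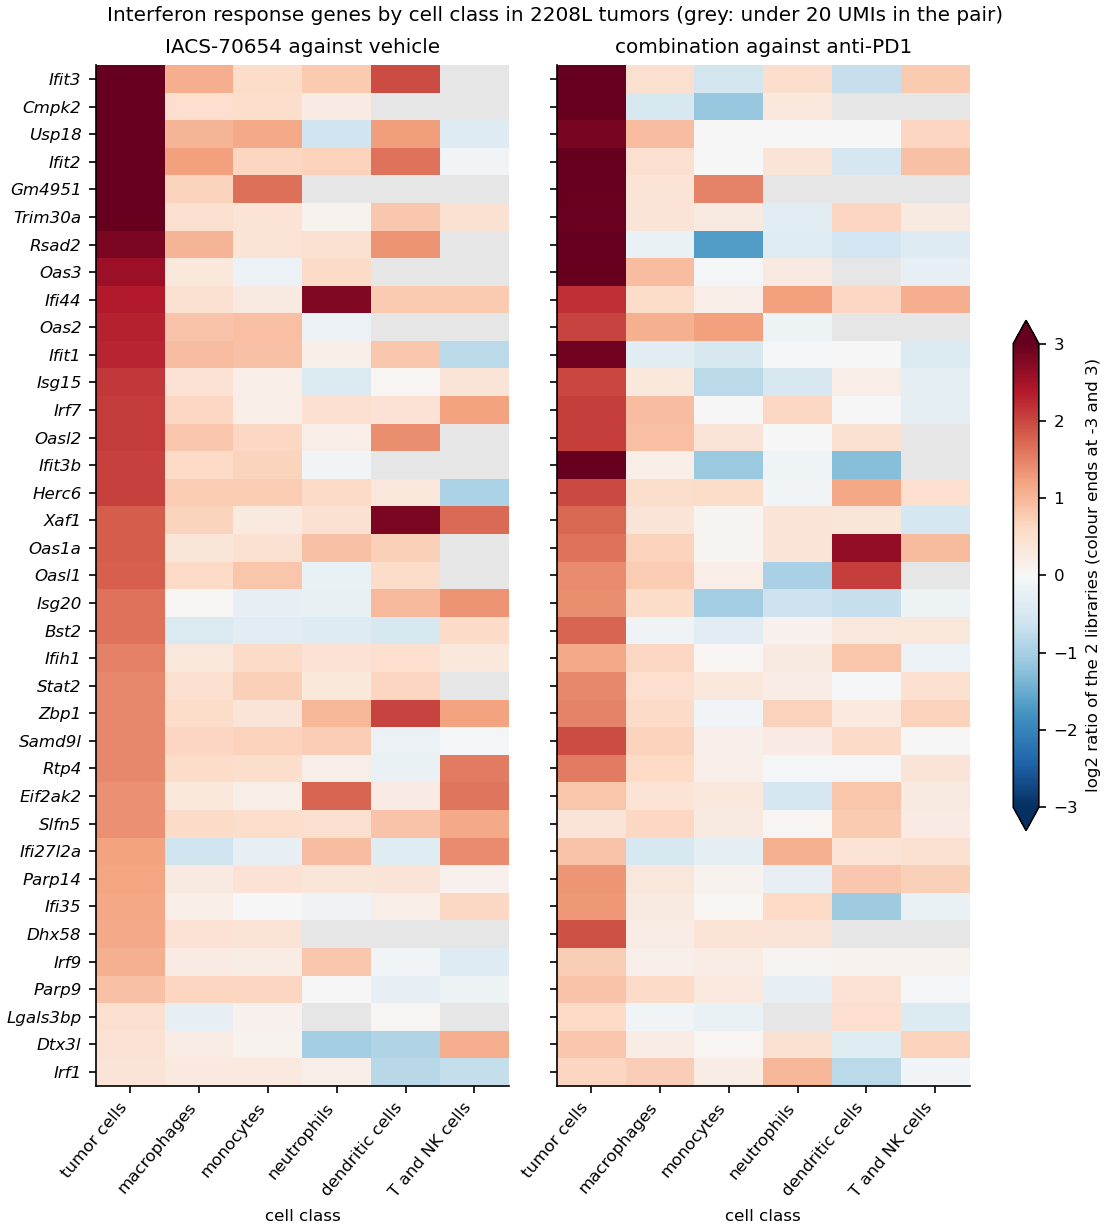
Log2 ratio of each member between 2 tumor libraries in 6 cell classes, for IACS-70654 against vehicle (left) and combination against anti-PD1 (right); red is higher with the inhibitor, grey has under 20 UMIs, and the colour ends at 3 in size. The tumor cell column is red for all 37 members in both panels, and the macrophage and monocyte columns are pale.

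The remaining tumor classes held few cells. In dendritic cells (27 cells in the vehicle library, 109 with IACS-70654) 7 of 31 members were higher than with vehicle (8.65% of genes) and 3 of 32 in the combination pair (8.14%), with 2 lower there (5.31%). Ifit3 had 0 UMIs in the vehicle library and 46 with IACS-70654, at least 3.88-fold higher against a floor of 3 counts, and Xaf1 stood at 13.1 (1.58 to 47.2) and 92.5 (69.9 to 120) CPM. In T and NK cells (79 and 64 cells) 9 of 24 members were higher (7.74%) and 1 of 30 in the combination pair (6.91%). The anti-PD1 library, set against the same vehicle library, had 7 of 29 higher in this class (5.96%), 4 of 18 in dendritic cells (4.06%) and 3 of 7 in B cells (6.66%). In T and NK cells Ifi27l2a was at 737 CPM with vehicle, 1975 with IACS-70654, 1410 with anti-PD1 and 1942 with the combination. In B cells, with 37 and 16 cells, 10 of 12 members were higher (12.1%), with Irf7 at a log2 ratio of 2.68 (1.66 to 3.87), but the B cells compared were unlike, with median UMIs of 2093 with vehicle and 9028.5 with IACS-70654. In the combination pair, with 48 and 13 B cells, 3 of 9 were higher (10.2%) and 1 lower (18.6%), with a median of 0.0. Plasmacytoid dendritic cells had 4 of 18 higher (11.1%) and 2 lower (7.85%) in the vehicle pair, and 2 of 15 higher (12.2%) in the combination pair. In fibroblasts 2 of 30 were higher (7.54%) and 2 lower (7.75%) with IACS-70654, and 6 of 32 higher (12%) and 1 lower (6.21%) with the combination. Endothelial cells had 2 of 11 higher (8.43%) in the first pair and 6 of 14 (11.1%) in the second.

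In marrow, libraries were compared with edgeR's quasi-likelihood test on UMIs summed per class, and a call needed a log2 change beyond 0.5 either way and a Benjamini-Hochberg adjusted p under 0.01. All adjusted p-values below are from this test, over all genes of the class. For other fits, cell sets, scalings and thresholds, unadjusted p included, the share of all genes called is not given. Those counts show only how the calls depend on the setting. Levels of members and other pathway genes are CPM after TMM scaling, which sets the median gene at no change. Sums of markers are CPM over class totals without TMM, so they are not on the scale of the member levels. The 2 comparisons share the vehicle libraries, so a member low in those libraries alone moves in opposite directions in them. Where a class had calls in 1 direction and 0 in the other, DESeq2 also called 0 in that other direction, and 0 to 2 members stood there at an edgeR adjusted p under 0.05 with no fold threshold.

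Mature neutrophils of tumor-bearing mice given vehicle had higher levels of part of the interferon response genes than those of WT mice. Of 36 members tested, 14 rose (5.06% of genes) and 0 fell (4.16%), with a median log2 change of 0.38 against 0.0 over all genes. With library totals alone, under which the median gene moved by -0.11, 8 members were called higher and 0 lower. With IACS-70654 against vehicle 2 of 36 were higher (10.9%) and 6 lower (8.89%), together near the share of all genes called, with a median of -0.1 against 0.0. This split turned with the scaling. With library totals alone, under which the median gene moved by 0.26, 10 members were called higher and 2 lower. The share of all genes called with totals alone is not given, so these counts show only that the split depends on the scaling.

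Oasl2, an oligoadenylate synthetase-like protein, rose most against WT. Its level was 9.81 and 8.84 CPM in the WT libraries, 39.9 and 32.2 with vehicle, then 28.1 and 33.3 with IACS-70654. The log2 change from WT to vehicle was 1.94 ± 0.14 (SE, n = 2 libraries per group, edgeR adjusted p = 2.8e-24). Every library of tumor-bearing mice was above every WT library. Oas1a, an active synthetase, was at 23.1 and 21.5 in WT, 45.7 and 46.4 with vehicle, then 43.8 and 42.9 with IACS-70654 (1.05 ± 0.10). Ifi27l2a was at 617 and 600, 1028 and 1001, then 923 and 937 (0.74 ± 0.03). Trim30a, a restraint on Toll-like receptor signalling, was at 134 and 140, 250 and 245, then 184 and 189 (0.85 ± 0.05). For Oas1a and Ifi27l2a the IACS-70654 libraries stayed near the vehicle level, and for Trim30a they stood between the other groups.

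Slfn5, a Schlafen protein, rose from 53.3 and 46.6 in WT to 107 and 93.8 with vehicle (1.00 ± 0.07) and stood at 143 and 138 with IACS-70654. Ifit1 rose from 24.6 and 30.3 to 55.6 and 44.9 (0.86 ± 0.10) and further to 70.1 and 77.9 with IACS-70654 (0.58 ± 0.07, adjusted p = 6.6e-14). These 2 genes were lowest in WT and highest with the inhibitor. Isg15 took another course, with 66.9 and 66.1 in WT, 114 and 101 with vehicle (0.69 ± 0.07), then 58.7 and 63.7 with IACS-70654 (-0.80 ± 0.05, adjusted p = 1.7e-27). The sensor Zbp1 was at 18.5 and 14.7, 26.2 and 25.6, then 32.6 and 36.0 (0.64 ± 0.13 against WT). The other 6 members that rose against WT, Isg20, Oas2, Rtp4, Eif2ak2, Dtx3l and Oasl1, had log2 changes of 0.52 to 0.60.

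Of the 6 members lower with IACS-70654 than with vehicle, Isg20 fell most, from 36.2 and 30 to 17.4 and 15.4, against 26.2 and 16.9 in WT (-1.01 ± 0.10, adjusted p = 7e-16). Samd9l, a restraint on growth and translation, was at 398 and 393 in WT, 384 and 379 with vehicle, then 240 and 242 with IACS-70654 (-0.66 ± 0.03). Only in the IACS-70654 libraries was Samd9l low. Rsad2 was at 62.5 and 66.1, 83.3 and 69.9, then 45.1 and 46.9 (-0.72 ± 0.06). Oasl1, which limits Irf7 synthesis, was at 85.8 and 80.6, 124 and 116, then 84.8 and 76.4 (-0.58 ± 0.05), back at the WT level. Ifit3b was at 21.0 and 21.3, 27.1 and 20.3, then 16.9 and 15.0 (-0.56 ± 0.11). The 2 members that rose were Ifit1 and Ifit2, the latter from 4.59 and 5.15 with vehicle to 7.87 and 9.59 (0.84 ± 0.18), against 6.54 and 5.42 in WT.

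The calls in mature neutrophils depended on clusters as well as on scaling. With the clusters led by Il1b left out, 7 were higher and 2 lower, and against WT 9 were higher and 1 lower. No share of all genes is given for these refits, so the counts show only that the calls moved. Isg20 was called lower under every alternative run in this class. Without vehicle replicate 1 Ifit3b lost its call (-0.35), without vehicle replicate 2 Ifit1 lost it (0.42), and without IACS-70654 replicate 2 Oasl1, Ifit2, Ifit3b and Ifit1 lost theirs. Against WT, leaving out WT replicate 2 ended the calls of Zbp1, Oasl1, Isg20, Dtx3l and Eif2ak2 (0.25 to 0.49), and leaving out vehicle replicate 1 those of Oasl1, Isg20 and Rtp4 (0.48 or 0.49). The clusters that make up the class differed by group. A cluster led by Gm16556 and Slc7a11 held 64.3% of WT cells, 3.81% with vehicle and 0.447% with IACS-70654, those led by Prok2 and by Il1b (with Steap4) held 36.6% and 32.1% with vehicle, and those led by Stfa2 and by Il1b (with Fgl2) held 64.8% and 31.4% with IACS-70654. In mature neutrophils the 8 macrophage markers summed to 62.2 and 52.9 CPM in WT, 104 and 108 with vehicle, then 153 and 170 with IACS-70654, and the 8 monocyte markers to 426 and 405, 345 and 356, then 174 and 189. No marker of these 2 lists was at 0. The 8 T and NK markers, 1 of them at 0, summed to 309 and 303, 210 and 198, then 68.4 and 64.4. Cd3d of this list was among the 10 leading genes of a mature neutrophil cluster led by Tinagl1 and Retnlg, so the list is not particular to lymphocytes here. The part of these 3 lists in the result was not tested.

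In immature neutrophils some members were higher in the libraries with the inhibitor. Of 35 tested, 11 rose (7.57%) and 0 fell (5.58%), median 0.35 against 0.01. Whether these changes differed from those in mature neutrophils was not tested. Against WT, 4 rose (2.94%) and 1 fell (2.34%), but with library totals alone, under which the median gene moved by -0.25, 1 was called higher and 3 lower. Slfn5 was at 3.55 and 5.32 in WT, 9.51 and 4.99 with vehicle, then 25.8 and 29.1 with IACS-70654 (1.97 ± 0.15, adjusted p = 4.7e-13). Ifit1 was at 6.69 and 5.55, 5.11 and 5.70, then 10.2 and 13.1 (1.11 ± 0.18). Both were above every vehicle and WT library in each IACS-70654 library. Ifit2 was at 7.94 and 6.94, 4.26 and 3.56, then 8.26 and 8.55 (1.11 ± 0.20), and was the 1 member called lower in vehicle than in WT (-0.94 ± 0.25, adjusted p = 0.0057). Oasl2, on 1 to 69 UMIs, was at 2.30 and 0.231, 2.98 and 2.14, then 4.80 and 5.13 (0.98 ± 0.29). Usp18 (0.89 ± 0.23), Rtp4 (0.85 ± 0.08), Eif2ak2 (0.80 ± 0.11), Zbp1 (0.70 ± 0.17), Herc6 (0.60), Oasl1 (0.57) and Xaf1 (0.54) made up the rest.

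For Rtp4, a chaperone of receptors, the libraries read 20.9 and 19.9, 27.0 and 27.4, then 48.2 and 50, and for Eif2ak2 15.5 and 15.5, 15.6 and 18.2, then 27.1 and 31.5. Usp18 was at 5.44 and 2.54, 3.98 and 4.04, then 6.24 and 8.4. Zbp1 was at 6.69 and 6.71, 5.82 and 6.30, then 9.12 and 10.6. In each of these 4 genes the IACS-70654 libraries were the highest of the 6. The members higher in vehicle than in WT were Trim30a (0.76 ± 0.10), from 35.1 and 27.3 to 51.4 and 54.5, Oas2 (0.72 ± 0.11), from 27.4 and 23.1 to 42.2 and 41.3, Oas1a (0.56 ± 0.14), from 15.3 and 13.2 to 21.2 and 21.0, and Ifi27l2a (0.51 ± 0.06), from 84.5 and 81.7 to 115 and 121. With library totals alone the median gene moved by 0.26 with the inhibitor and 18 members were called higher. DESeq2 called 5 of the 11 and, against WT, 3 of the 5. When immature and mature cells were summed, Oasl2, Oasl1, Usp18 and Rtp4 turned negative. Leaving out any 1 vehicle or IACS-70654 library ended 2 to 6 of the 11 calls, among which Oasl2 was always one. Slfn5, Ifit1, Ifit2, Rtp4 and Eif2ak2 kept theirs. Leaving out any 1 WT or vehicle library ended the call of Ifit2 against WT (-1.06 to -0.80) and that of Oas1a (0.47 to 0.68), and without WT replicate 2 (0.49) or vehicle replicate 2 (0.47) that of Ifi27l2a ended too. As in mature neutrophils, IACS-70654 cells fell mostly in clusters of their own. The 6 markers of the mature neutrophil stage summed to 5122 and 4798 CPM in WT, 6199 and 5767 with vehicle, then 9336 and 9353 with IACS-70654. The 8 early precursor markers summed to 478 and 487, 480 and 478, then 654 and 652. The 6 of the immature stage were at 108498 and 109502, 101630 and 101875, then 93583 and 94044. The 8 monocyte markers summed to 415 and 388, 334 and 329, then 179 and 187, and the 8 T and NK markers to 309 and 299, 246 and 237, then 105 and 105. Cd3d of the T and NK list was among the 10 leading genes of an immature neutrophil cluster led by F730016J06Rik and Ly6g. The part of these lists in the result was not tested.

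Early neutrophil precursors showed few calls, with 3 of 33 members higher with IACS-70654 (13.1% of genes) and 2 lower (10.6%). Against WT 2 were higher (2.07%) and 0 lower (1.61%). Samd9l fell here too, from 148 and 162 with vehicle to 84.3 and 81.6, against 127 and 125 in WT (-0.90 ± 0.06). Isg20 fell from 6.14 and 6.24 to 2.69 and 2.87, against 3.36 and 4.88 in WT (-1.15 ± 0.22). Bst2 rose from 8.23 and 8.42 to 13.8 and 13.4 (0.70 ± 0.14), Eif2ak2 from 21.8 and 21.3 to 32.5 and 32.0 (0.58 ± 0.09) and Rtp4 from 5.79 and 6.81 to 10.6 and 8.21 (0.55 ± 0.17, adjusted p = 0.0094). The clusters of this class differed by group too. Those led by Ctsg, Mpo and Elane and by Elane, Vcam1 and Ms4a3 held 518 and 445 of 1712 cells with IACS-70654, 185 and 164 of 1567 with vehicle and 180 and 109 of 1134 in WT. Without these clusters, a choice made after the data were seen, Isg20 (-1.87) and Eif2ak2 (0.83) were still called, whereas Samd9l (-0.46) and Rtp4 (0.6) were not and Bst2 turned negative (-0.24). Rtp4 lost its call when IACS-70654 replicate 1 (0.37), vehicle replicate 1 (0.45) or vehicle replicate 2 (0.68) was left out. Trim30a rose from WT to vehicle, from 14.5 and 13.8 to 23.2 and 23.4 (0.72 ± 0.12), and Ifi27l2a from 27.2 and 32.8 to 43.2 and 43.5 (0.53 ± 0.09). Without WT replicate 1 the change of Ifi27l2a was 0.41 and not called. With library totals alone the inhibitor comparison gave 9 higher and 2 lower, and the median gene moved by 0.29.

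In marrow monocytes the median member moved the other way from that in mature neutrophils between WT and vehicle. Of 36 members tested, 0 rose (0.609%) and 5 fell (0.598%), with a median of -0.23 against 0.0. Of these 5, only Ifit1 was called higher in mature neutrophils. There Ifit2 (-0.29) and Ifit3 (-0.34) were lower and Rsad2 (0.24) and Herc6 (0.17) higher, none of them called. In either direction 14 members had an unadjusted edgeR p under 0.05, with no share of all genes to set beside them. With IACS-70654 against vehicle 6 rose (2.37%) and 0 fell (3.88%), median 0.11 against 0.0. The 6 libraries held 153 to 365 monocytes.

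Rsad2 was at 42.3 and 29.9 CPM in WT, 3.09 and 4.41 with vehicle, then 17.5 and 15.9 with IACS-70654. Its log2 change was -3.22 ± 0.37 from WT to vehicle (adjusted p = 1.3e-08) and 2.13 ± 0.40 from vehicle to IACS-70654 (adjusted p = 5.8e-05). The vehicle values rest on 4 and 6 UMIs, and the IACS-70654 libraries stood between the other groups. Ifit1 was at 47.1 and 37.3, 17.0 and 11, then 30.3 and 27.1 (-1.58 ± 0.26 and 1.03 ± 0.25). Ifit2 was at 36.8 and 42.9, 13.9 and 12.5, then 23.4 and 24.6 (-1.60 ± 0.25 against WT). Ifit3 was at 21.2 and 30.5, 8.49 and 9.55, then 13.5 and 17.6 (-1.53 ± 0.32 against WT). All 3 Ifit genes were lowest in the vehicle libraries. With IACS-70654 against vehicle, Ifit2 (0.86) and Ifit3 (0.79) were not called.

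Herc6, the ligase that attaches Isg15 in mice, was at 78.5 and 70.0, 35.5 and 45.5, then 65.2 and 61.5 (-0.86 ± 0.17 and 0.64 ± 0.16). Oasl2 did not differ by the test between WT and vehicle, at 42.3 and 51.4, then 40.2 and 36.0, and rose to 82.0 and 72.7 with IACS-70654 (1.02 ± 0.16, adjusted p = 1.3e-06). Lgals3bp rose from 30.1 and 27.9 to 43.8 and 47.8 (0.66 ± 0.18) and Rtp4 from 74.9 and 69.1 to 117 and 98.4 (0.58 ± 0.13). For these 3 genes the IACS-70654 libraries were above the WT libraries as well. Without vehicle replicate 1, Herc6 (-0.70) and Ifit3 (-1.45) lost their calls against WT, and Ifit3 also without WT replicate 2 (-1.22) or vehicle replicate 2 (-1.62). Of the calls with IACS-70654, Lgals3bp was lost when any 1 vehicle or IACS-70654 library was left out (0.60 to 0.73). Herc6 was lost without IACS-70654 replicate 1 (0.60) or vehicle replicate 1 (0.47), Rtp4 without IACS-70654 replicate 1 (0.46) or vehicle replicate 2 (0.51), and Ifit1 without vehicle replicate 2 (0.74). DESeq2 called 0 of the 5 lower members against WT, 4 of which it gave no adjusted p, and 2 of the 6 higher with IACS-70654. Markers of other lists moved in this class with the inhibitor. The 8 macrophage markers summed to 2071 and 2185 CPM in WT, 2584 and 2360 with vehicle, then 1089 and 1036 with IACS-70654, and the 6 dendritic progenitor markers to 1118 and 966, 1267 and 824, then 268 and 289. The class's own 8 monocyte markers were at 7807 and 7865, 7840 and 7850, then 5866 and 5824, and the 8 neutrophil markers at 18653 and 16604, 23860 and 20138, then 19273 and 23388. Markers of earlier neutrophil stages moved in both comparisons, with the 7 of neutrophil-committed progenitors at 392 and 421, 530 and 883, then 1063 and 1005, and the 8 of early precursors at 422 and 476, 608 and 944, then 1120 and 1055. No marker of these lists was at 0, and their part in the result was not tested.

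Other pathway genes were tested in monocytes too. Cxcl10, the chemokine, had 50 and 26 UMIs in WT and 0 in each vehicle library, then 8 and 13 with IACS-70654 (adjusted p = 8.6e-08 from WT to vehicle and 0.015, not called, for the inhibitor). Socs3, a brake on cytokine receptors, rose from 4.78 and 5.08 CPM in WT to 23.9 and 20.6 with vehicle (2.16 ± 0.36) and stood at 21.1 and 23.2 with IACS-70654.

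**Figure D3:**
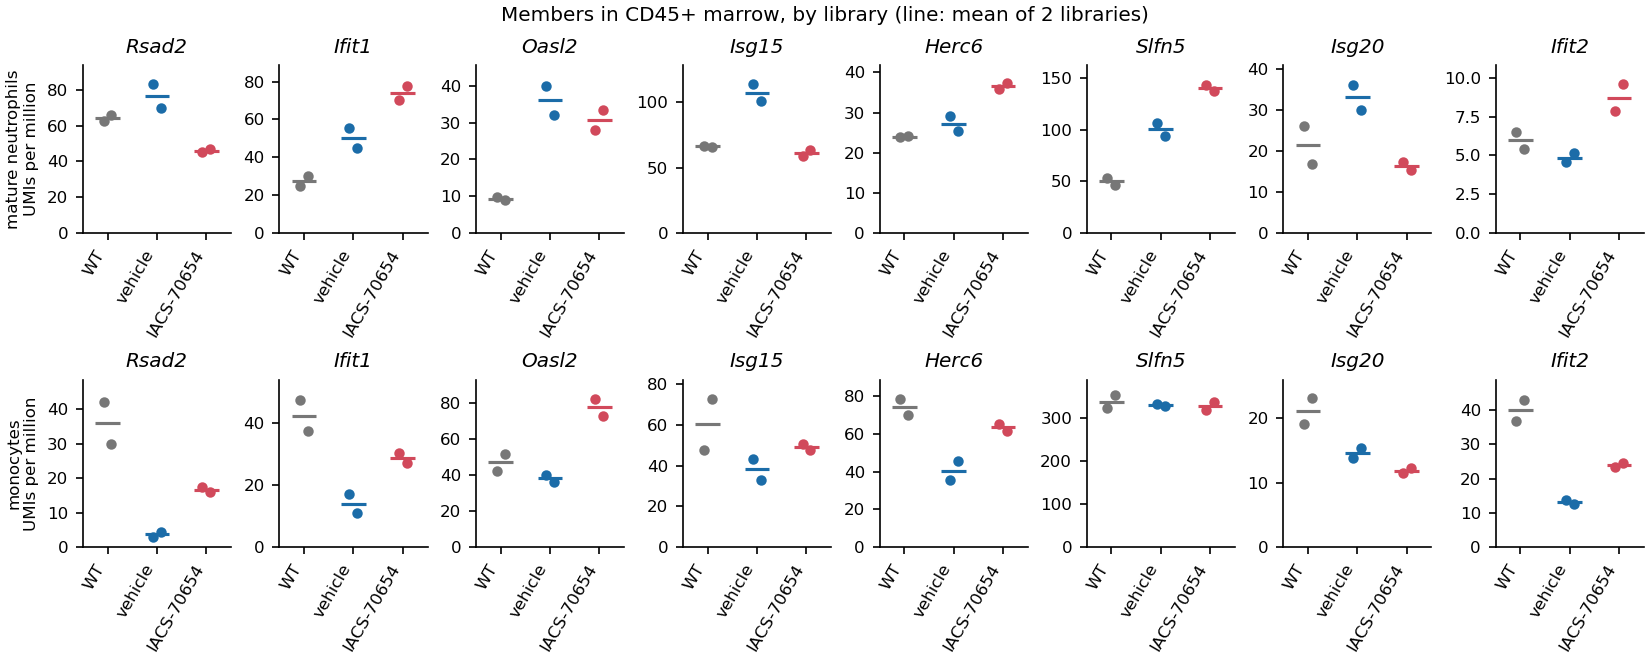
Level of 8 members in mature neutrophils (top) and monocytes (bottom) of CD45+ marrow, in CPM after TMM scaling, with 1 point per library and the mean of 2 libraries as a line. Rsad2 and Ifit1 are lowest with vehicle in monocytes, at 3.09 and 4.41 and at 17.0 and 11, but not in mature neutrophils, and Oasl2 is lowest in WT mature neutrophils.

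The difference between the 2 cell types was tested within the same libraries. From WT to vehicle the change was greater in mature neutrophils than in monocytes for 11 of 36 members (1.44% of genes) and smaller for 0 (1.08%). Rsad2 differed by 3.47, Ifit1 by 2.44, Oasl2 by 2.24 and Isg15 by 1.37 on the log2 scale. From vehicle to IACS-70654 the change was greater in mature neutrophils for 0 members (4.83%) and smaller for 5 (2.91%), led by Rsad2 at -2.86, Oasl2 at -1.23 and Isg15 at -1.17. With library totals alone, 9 members differed in the inhibitor comparison.

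In marrow plasmacytoid dendritic cells, the main makers of interferon α, 3 of 28 members rose with IACS-70654 (0.859%) and 1 fell (2.00%). Ifih1 was at 9.42 and 7.08 CPM in WT, 8.29 and 10.0 with vehicle, then 56.7 and 32.8 with IACS-70654 (2.25 ± 0.46, adjusted p = 0.0034), on 4 to 47 UMIs. Slfn5 was at 73.0 and 75.9, 45.6 and 48.0, then 124 and 110 (1.32 ± 0.22). Both were high in the IACS-70654 libraries alone. Ifi44 was at 70.7 and 92.1, 49.8 and 86.0, then 150 and 136 (1.06 ± 0.23). Bst2, a surface marker of this cell type, fell from 1428 and 1416 to 855 and 709, against 1468 and 1516 in WT (-0.86 ± 0.11). Without either vehicle library Ifih1 and Slfn5 lost their calls (2.13 and 2.39, and 1.29 and 1.36), and Ifih1 did so without IACS-70654 replicate 1 (1.83). Ifi44 lost its call without vehicle replicate 1 (0.73) or either IACS-70654 library (1.00 and 1.14). DESeq2 called none of the 3 higher members and kept the call of Bst2. From WT to vehicle 0 members were called by edgeR (0% of genes) and 0 by DESeq2, with 4 at an unadjusted p under 0.05.

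In marrow B cells 1 of 19 members was called with IACS-70654 (10.2% of genes in either direction). Ifi27l2a fell from 569 and 453 to 162 and 339 (-0.90 ± 0.17), and stood at 372 and 398 in WT. The 2 IACS-70654 libraries held 46 and 100 B cells, and their values lay far apart. Without the cells marked as doublets the change was -0.94 and not called. The groups also held different B cell clusters. A cluster led by Bank1, Ighd and H2-Eb1 held 105 of 146 B cells with IACS-70654, 9 of 333 with vehicle and 238 of 1417 in WT, and one led by Agbl1, Bach2 and Cecr2 held 14, 224 and 846. The part of these clusters in the change of Ifi27l2a was not tested. Between vehicle and WT edgeR called 0 members (1.24%) and DESeq2 0, with 3 at an unadjusted p under 0.05. In T and NK cells edgeR and DESeq2 called 0 of 7 members in either comparison (0.475% of genes with IACS-70654 and 0.950% against WT), with 1 at an unadjusted p under 0.05 in each.

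Lin- c-Kit+ progenitors were compared in 4 classes. In stem and multipotent progenitors 4 of 35 members rose with IACS-70654 (1.33%) and 0 fell (3.62%), median 0.19 against 0.0. Ifi27l2a was at 17.9 and 19.5 CPM in WT, 27.8 and 24.1 with vehicle, then 61.1 and 68.0 with IACS-70654 (1.26 ± 0.12, adjusted p = 2e-18). Oasl2 was at 8.73 and 10.7, 11.2 and 10.6, then 21.7 and 22.9 (1.00 ± 0.18). Rtp4 was at 29.5 and 30.6, 29.0 and 32.8, then 47.1 and 45.5 (0.62 ± 0.12). For Oasl2 and Rtp4 the vehicle libraries stood near WT, and for Ifi27l2a they stood above WT without a call. In all 3 genes the IACS-70654 libraries were the highest of the 6. Slfn5 was at 10.8 and 10.2, 12.4 and 21.7, then 27.1 and 24.6 (0.75 ± 0.17). Slfn5 lost its call without vehicle replicate 1 (0.27) or IACS-70654 replicate 1 (0.65), and Rtp4 without vehicle replicate 1 (0.50). Irf1 was the 1 member called from WT to vehicle (0.858% of genes in either direction), with 40.3 and 45.0, then 28.7 and 27.0 (-0.60 ± 0.15, adjusted p = 0.0078), and lost its call when any 1 WT or vehicle library was left out (-0.68 to -0.52). DESeq2 called only Ifi27l2a of the 4 higher members, and 0 from WT to vehicle. In this class the 8 macrophage markers summed to 257 and 300 CPM in WT, 218 and 192 with vehicle, then 100 and 96.4 with IACS-70654, the 8 T and NK markers to 106 and 111, 108 and 106, then 50.6 and 50, and the 6 basophil and mast markers to 198 and 231, 150 and 141, then 267 and 248. Their part in the result was not tested.

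Monocyte progenitors held the most edgeR calls of the c-Kit+ classes, whereas DESeq2 called more members in erythroid and megakaryocyte progenitors. With IACS-70654, 10 of 32 members rose (3.15%) and 0 fell (3.01%), median 0.27 against 0.0. From WT to vehicle edgeR called 0 (1.40%) and DESeq2 0, with 10 at an unadjusted p under 0.05. Irf7, the factor that amplifies interferon α, was at 2.17 and 0.617 in WT, 1.56 and 1.74 with vehicle, then 4.98 and 5.81 with IACS-70654 (1.70 ± 0.29, adjusted p = 4.6e-07). Slfn5 was at 1.24 and 0.411, 1.88 and 2.86, then 6.86 and 6.82 (1.65 ± 0.25). Rtp4 was at 1.86 and 1.23, 1.25 and 2.11, then 4.54 and 5.01 (1.63 ± 0.30). In all 3 the IACS-70654 libraries were the highest of the 6, on 25 to 62 UMIs in each IACS-70654 library. The WT values, at 0.411 to 2.17 CPM, rest on fewer UMIs.

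Oasl2 was at 1.55 and 0.411, 0.886 and 1.37, then 3.10 and 3.01 (1.56 ± 0.37), and Samd9l at 3.26 and 2.06, 3.75 and 2.99, then 9.96 and 8.22 (1.40 ± 0.20). Samd9l was thus called higher in monocyte progenitors and lower in mature neutrophils. Oas3 was at 1.71 and 1.23, 1.04 and 1.37, then 2.43 and 3.01 (1.20 ± 0.37). Ifi27l2a was at 29.5 and 25.1, 36.5 and 31.1, then 67.5 and 81.4 (1.06 ± 0.07), and Xaf1 at 7.29 and 6.99, 8.24 and 11.1, then 15.5 and 12.2 (0.65 ± 0.14). Oas1a and Parp14 rose by 0.58 and 0.51. Without vehicle replicate 1 Oasl2, Oas3, Oas1a, Xaf1, Rtp4 and Parp14 lost their calls (0.37 to 1.15). Without IACS-70654 replicate 1 Oasl2 (1.53), Oas3 (1.38) and Xaf1 (0.43) lost theirs, and without IACS-70654 replicate 2 Oas3 (1.08), Oas1a (0.50) and Parp14 (0.44). Oas3 lost its call with any library left out. DESeq2 called 4 of the 10, namely Samd9l, Irf7, Slfn5 and Ifi27l2a. The 8 neutrophil markers summed to 88.2 to 126 CPM in the WT and vehicle sums of this class and to 797 and 951 with IACS-70654, with 1 of them at 0. The 8 T and NK markers, 2 of them at 0, summed to 144 and 132 in WT, 145 and 143 with vehicle, then 79.5 and 82.2 with IACS-70654. The part of both lists in the result was not tested.

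In neutrophil-committed progenitors 3 of 30 members rose with IACS-70654 (3.20%) and 0 fell (3.52%). From WT to vehicle edgeR called 0 (1.05%) and DESeq2 0, with 3 at an unadjusted p under 0.05. Ifi27l2a was at 2.87 and 2.45, 3.70 and 2.27, then 8.63 and 9.34 (1.42 ± 0.21), and Slfn5 at 0.819 and 1.22, 1.16 and 0.757, then 2.47 and 3.41 (1.41 ± 0.38). The WT levels of Slfn5 and that of 0.757 CPM with vehicle rest on few UMIs. Parp14, an ADP-ribosyltransferase, was at 13.1 and 9.18, 10.2 and 8.14, then 16.5 and 12.9 (0.66 ± 0.14). The call of Slfn5 was lost when any 1 vehicle or IACS-70654 library was left out (1.22 to 1.87), and that of Parp14 without IACS-70654 replicate 1 (0.42). DESeq2 called only Ifi27l2a of these 3, and gave 1 of the others no adjusted p. A cluster led by Alas1 and Cebpe held 23.3% of this class in WT, 16% with vehicle and 48% with IACS-70654, and its part in the result was not tested.

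In erythroid and megakaryocyte progenitors members moved both ways. With IACS-70654, 4 of 34 rose (2.44%) and 4 fell (4.42%). The clusters led by Pf4, a megakaryocyte gene, held 1048 and 451 of 2869 cells with IACS-70654, 246 and 263 of 1570 with vehicle and 526 and 248 of 2215 in WT. Without these clusters, a choice made after the data were seen, 1 member was called higher and 8 lower, and Oasl2 (1.51), Zbp1 (0.14) and Oas3 (0.21) lost their calls, while Ifi27l2a, Isg20, Oasl1, Lgals3bp and Bst2 kept theirs. Oasl2 rose from 1.46 and 0.593 to 4.26 and 4.51 (1.81 ± 0.31), Zbp1 from 0.558 and 0.989 to 1.59 and 2.62 (1.54 ± 0.44), Oas3 from 1.74 and 1.38 to 3.46 and 3.25 (1.04 ± 0.30) and Ifi27l2a from 4.53 and 4.35 to 8.80 and 9.33 (1.00 ± 0.18). The vehicle values of 0.593 CPM for Oasl2 and 0.558 and 0.989 CPM for Zbp1 rest on few UMIs. For Zbp1 the WT libraries stood at 1.27 and 1.59, near the IACS-70654 libraries. Isg20 fell from 65.0 and 55.2 to 25.7 and 21.8, against 54.4 and 58.4 in WT (-1.35 ± 0.08, adjusted p = 1.6e-28). Oasl1 (-0.72 ± 0.14), Lgals3bp (-0.71 ± 0.09) and Bst2 (-0.65 ± 0.07) fell as well, with Lgals3bp at 35.4 and 33.2 with vehicle, then 21.1 and 21.6 with IACS-70654, Bst2 at 48.4 and 55.6, then 31.2 and 33.8, and Oasl1 at 14.1 and 12.3, then 9.03 and 6.92. Irf1 was lower in vehicle than in WT (1.35% of genes in either direction), with 14.3 and 14.0, then 8.50 and 7.52 (-0.78 ± 0.14). Zbp1 lost its call without vehicle replicate 1 (0.98) or IACS-70654 replicate 2 (1.22), Oasl1 without vehicle replicate 1 (-0.57), and Oas3 without any 1 of the vehicle and IACS-70654 libraries (0.95 to 1.28). DESeq2 called 5 of the 8, without Zbp1, Oas3 and Oasl1, and did not call Irf1.

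**Figure D4:**
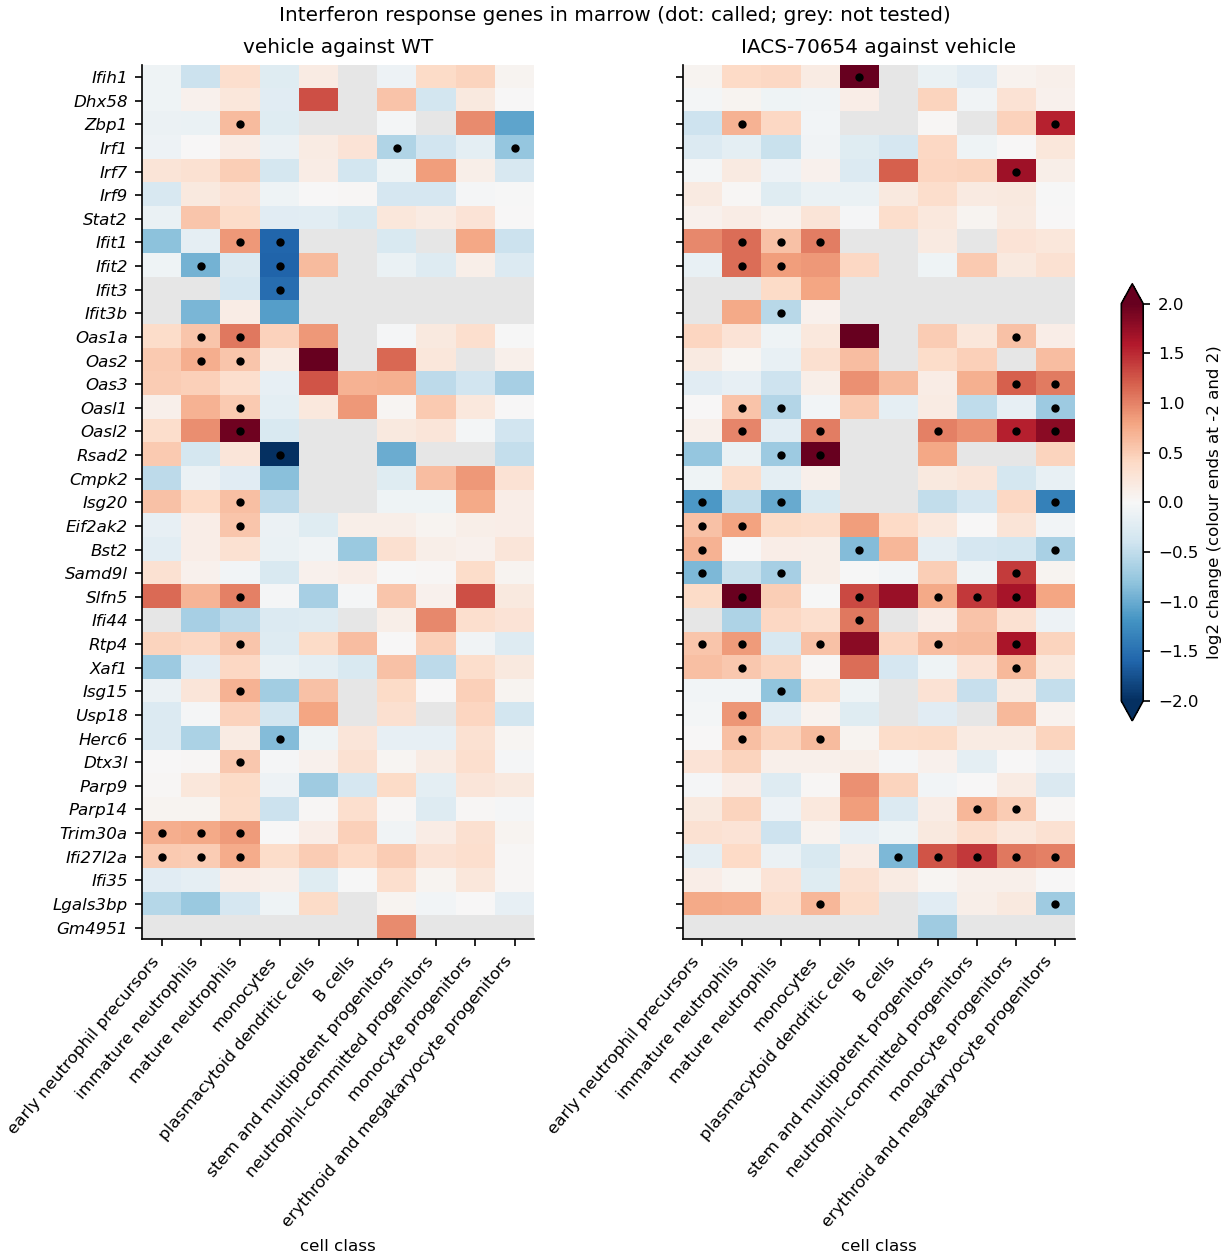
Log2 change of each member in 10 marrow classes, for vehicle against WT (left) and IACS-70654 against vehicle (right); dots mark called members, grey was not tested, and the colour ends at 2 in size. Calls from WT to vehicle gather in the mature neutrophil column (14 higher) with blue cells in monocytes (5 lower), while Ifi27l2a carries dots in all 4 progenitor columns on the right and Slfn5 and Oasl2 in 3 each.

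Across the 11 marrow classes the members had no common course. Ifi27l2a was called higher with IACS-70654 in all 4 c-Kit+ classes and lower in B cells, and was called higher in vehicle than in WT in the 3 neutrophil classes. Slfn5 was called higher with the inhibitor in immature neutrophils, plasmacytoid dendritic cells and 3 progenitor classes. Isg20 was called lower with the inhibitor in early precursors, mature neutrophils and erythroid and megakaryocyte progenitors, and higher in no class tested. Irf9, Stat2, Dhx58, Ifi35, Parp9 and Cmpk2 were called in no marrow class in either comparison, and Gm4951 could be tested only in stem and multipotent progenitors. Of the 46 other pathway genes, 28 to 31 were tested in the c-Kit+ and neutrophil classes, with at most 5 called in any of these comparisons.

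To count the members with a UMI in single cells, each cell was thinned to a fixed number of UMIs (2000 in tumors, 1000 in CD45+ and 3000 in c-Kit+ marrow) and members with at least 1 UMI were counted. Such a UMI can also come from RNA free in the droplet, the share of which was not estimated, so the counts describe UMIs and not cells that express a member. Shallower cells were left out, 5 to 12 tumor cells and 26 to 82 macrophages per library. Tumor cells with a UMI of 5 or more members made up 6.69% with vehicle, 27.5% with IACS-70654, 9.89% with anti-PD1 and 34.9% with the combination. Without thinning, the shares were 69.0%, 88.3%, 71.0% and 91.8%, with median UMIs per tumor cell of 15261, 14135, 16088 and 13855. In macrophages they were 45.1%, 57.4%, 41.4% and 62.6% after thinning, and 84.3%, 89%, 82.3% and 91.0% without it. The inhibitor libraries were higher in both classes, by a larger margin in tumor cells. For comparison, the macrophage complement genes C1qa, C1qb and C1qc, which epithelial cells should lack, had a UMI in 21.2%, 22.9%, 20.2% and 23.5% of thinned tumor cells in the same order of libraries, and in 99% to 99.8% of thinned macrophages. Per total UMIs these 3 genes summed to 147, 278, 160 and 250 CPM in tumor cells. The part of free RNA in the shares was not tested.

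In mature neutrophils the thinned shares were 10.0% and 8.78% in WT, 17.6% and 16.4% with vehicle, then 14.4% and 14.4% with IACS-70654, against 35.0% and 35.5%, 61.5% and 59.3%, and 61.2% and 60.2% without thinning. Vehicle libraries stood above WT libraries, and the IACS-70654 libraries between them only after thinning. In monocytes 22.1% to 24.9% of cells had 5 or more members in every library, but cells with 8 or more were 6.0% and 5.19% in WT, 0.654% and 1.23% with vehicle, then 4.79% and 5.49% with IACS-70654. The vehicle libraries held 153 and 163 thinned monocytes and the WT libraries 200 and 231, so these shares rest on few cells. In stem and multipotent progenitors the shares with 5 or more were 7.69% and 11.4%, 13.3% and 11.9%, and 19.2% and 18.1%, and without thinning 32.9% and 34.7%, 41.2% and 39.9%, and 40.3% and 39.1%. In monocyte progenitors they were 1.58% and 0.957%, 1.32% and 2.16%, then 4.5% and 5.91%. In these 2 progenitor classes the thinned IACS-70654 shares were the highest of the 6 libraries. The cells too shallow to enter numbered 9 to 49 mature neutrophils, 0 to 3 monocytes, 29 to 313 stem and multipotent progenitors and 1 to 14 monocyte progenitors per library. The 2 highest of the stem and multipotent counts, 313 and 165, were those of the IACS-70654 libraries.

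**Figure D5:**
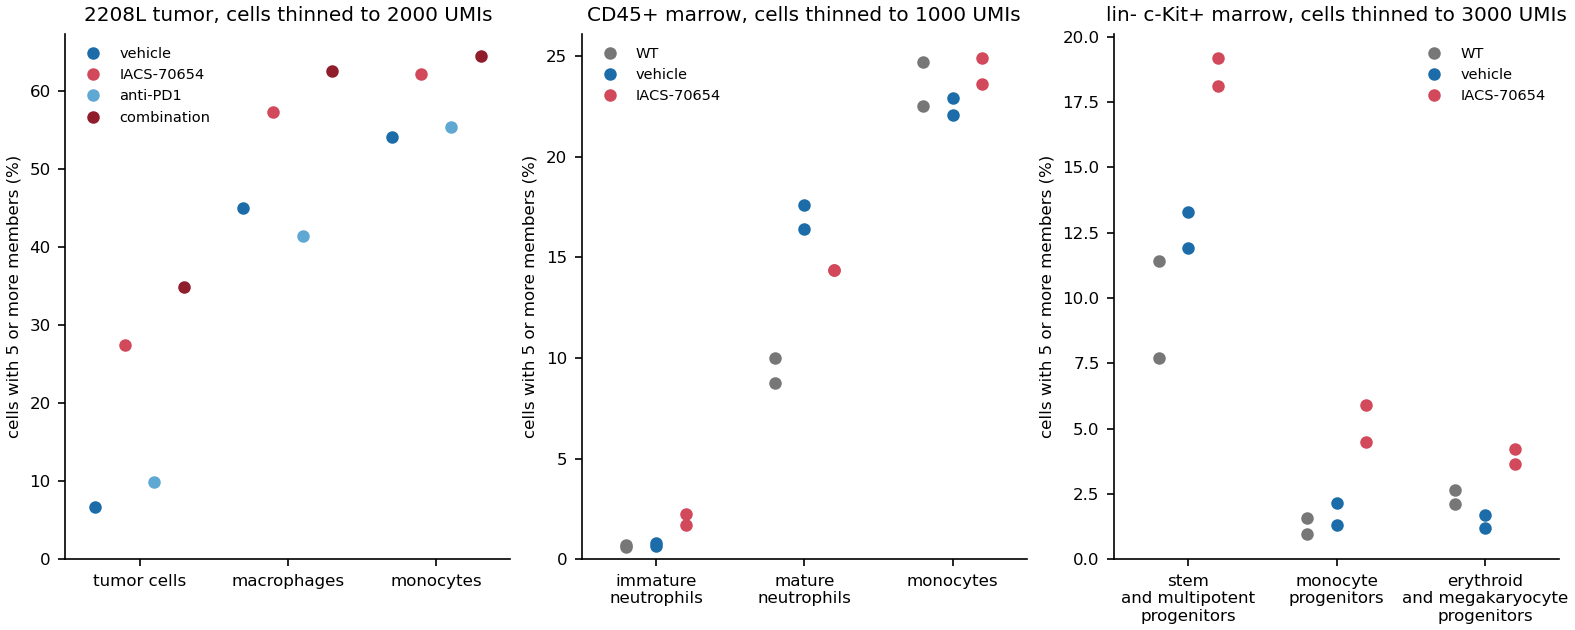
Percent of cells with a UMI of 5 or more of the members, after thinning each cell to the number of UMIs in the panel title, with 1 point per library in 9 classes. In tumor cells the libraries with the inhibitor stand at 27.5% and 34.9% against 6.69% and 9.89%, and in mature neutrophils the vehicle libraries are highest at 17.6% and 16.4%.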

How the data were processed

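The authors deposited raw UMI counts per gene and cell for 16 10x samples, called libraries here. By the published text, cells carried CellPlex sample tags and Cell Ranger multi assigned them to samples. Which samples shared a 10x capture is not stated. The matrix headers name Cell Ranger 7.1.0 (tumors) and 7.2.0 (marrow), and the labels mm10 and Seurat. BALB/c reads were thus counted on a C57BL/6J genome. Members and gene lists were chosen with earlier results of these data known. Cells with over 200 and under 6000 genes and at most 10% mitochondrial UMIs were kept and clustered per tissue (scanpy 1.11.5, Leiden resolution 1.0) without the member and pathway genes. Scrublet marked 0.0568% to 0.327% of cells, too few to have worked, and these stayed in (leaving them out, or the 5% of cells with the highest score, was an alternative). Total UMIs per library were 15590289 to 68415534.

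Marrow counts were summed per class and library and tested with edgeR 4.0.16 (quasi-likelihood, TMM, 6 libraries per fit, Benjamini-Hochberg) with DESeq2 1.42.0 as an alternative. The difference between cell types was an interaction with the library as a term. Nothing says that replicate libraries came from separate experiments or from different mice. The p-values thus measure the spread between libraries, each with the pooled cells of 3 mice. Tumor libraries were compared by CPM with exact Poisson and Clopper-Pearson intervals, among genes with at least 20 UMIs in a pair. The scripts were tested on simulated data. Values are given for up to 8 called members per marrow class and comparison with the largest change, and up to 6 per tumor class by ratio. In the small tumor classes the examples were chosen after their values were seen. Of the pathway list, 1 gene is not reported here.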

Additional observations from a re-analysis of the deposited data

Results flagged for a closer look

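In CD45+ marrow, 16 differences between mature neutrophils and monocytes passed the test of the difference itself (edgeR quasi-likelihood, interaction over the same 6 libraries, adjusted p under 0.01 and over 0.5 in size). From vehicle to IACS-70654 the log2 change in mature neutrophils minus that in monocytes was -2.86 for Rsad2, -1.23 for Oasl2, -1.17 for Isg15, -0.9 for Rtp4 and -0.76 for Samd9l. From WT to vehicle it was 3.47 for Rsad2, 2.44 for Ifit1, 2.24 for Oasl2, 1.37 for Isg15, 1.04 for Herc6, 1.03 for Slfn5, 0.88 for Zbp1, 0.84 for Irf7, 0.84 for Trim30a, 0.81 for Rtp4 and 0.79 for Parp14. The 2 comparisons share the vehicle libraries. Without vehicle replicate 1 the difference of Herc6 was 0.79 and without WT replicate 2 that of Zbp1 was 0.72. Both were over 0.5 in size, but neither was called. The monocyte values of Rsad2 with vehicle rest on 4 and 6 UMIs.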

How the results depend on the processing

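Over the CD45+ classes, 25 member calls were higher and 10 lower with IACS-70654 than with vehicle, and 20 higher and 6 lower in vehicle than in WT. At an adjusted p under 0.05 with no fold threshold these were 49, 24, 37 and 11. DESeq2 gave 10 in place of 25 and 0 in place of 6. Library totals without TMM gave 46, 6 and 10 in place of 25, 10 and 20. Summing immature and mature neutrophils gave 14 in place of 25, and leaving out the clusters led by Il1b gave 6 in place of 10. With 1 library left out the ranges were 15 to 26, 8 to 11, 14 to 21 and 3 to 7. In c-Kit+ classes the counts were 21 higher and 4 lower with IACS-70654, and 0 and 2 from WT to vehicle. The looser threshold gave 35, 10 and 4 for the first 3, and DESeq2 8 in place of 21 and 0 in place of 2. No filter and totals alone each gave 1 in place of 2, and leaving out the Pf4-led clusters, chosen after the data were seen, gave 8 lower in place of 4. Leaving out 1 library gave 12 to 20, 4, 0 to 1 and 1 to 2. The interaction count for the inhibitor, 5, was 9 with totals alone and 5 to 7 with 1 library left out, and that for WT to vehicle, 11, was 10 to 13. A fit with the replicate block, run although same-numbered libraries did not deviate together (correlations -0.0345 to 0.0751), gave 24 and 10, 20 and 6, 20 and 4, and 0 and 2. The block ended the calls of Rtp4 in early precursors (0.55) and Oas3 in monocyte progenitors (1.19).

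In tumors a log2 ratio over 0.5 counted 19 and 18 members in macrophages (4 and 1 at the threshold used), 17 in monocytes (2) with IACS-70654, and 11 and 7 in neutrophils (2 and 2). The share of all genes past 0.5 is not given, so these counts cannot be read as a response of the members. TMM gave 5 for macrophages and 1 for neutrophils in the combination pair, and a minimum of 50 UMIs 1 and 1 for neutrophils. The share of cells with 5 or more members, in percentage points, differed by 20.8 in tumor cells with IACS-70654 (32.1 for 3 or more, 10.7 for 8 or more) and by 25.0 with the combination (38.2, 13.7, and 20.8 not thinned). In macrophages it differed by 12.3 (4.7 not thinned, 5.3 for 3 or more). In mature neutrophils it differed by 7.61 from WT to vehicle (25.1 not thinned, 14.6 and 1.97 for 3 and 8 or more) and by -2.6 with IACS-70654, which reversed to 0.3 not thinned (-1.85 and -0.4 for 3 and 8 or more). In monocytes the difference was -1.1 from WT to vehicle (reversed to 1.3 for 3 or more, -4.65 for 8 or more) and 1.75 with IACS-70654 (3.05 and 4.2). In stem and multipotent progenitors it was 6.05 (reversed to -0.85 not thinned, 7.7 and 2.01). Without the Mpo-led and Elane-led clusters, also chosen after the data were seen, Bst2 in early precursors reversed (-0.24). Summing immature and mature neutrophils reversed Oasl2 (-0.34), Oasl1 (-0.68), Usp18 (-0.22) and Rtp4 (-0.37). Leaving out the 5% of cells with the highest doublet score, chosen after the data were seen, ended 11 marrow calls. With IACS-70654 these were Rtp4 in early precursors (0.57), Herc6 (0.55), Lgals3bp (0.54) and Ifit1 (0.86) in monocytes, Oas3 (1.03) and Parp14 (0.49) in monocyte progenitors and Oas3 in erythroid and megakaryocyte progenitors (0.97), and against WT Ifi27l2a in early precursors (0.41) and immature neutrophils (0.28), Ifit2 in immature neutrophils (-0.85) and Oasl1 in mature neutrophils (0.49). Leaving out the marked doublets ended 2 calls, Rtp4 in early precursors (0.54) and Ifi27l2a in B cells (-0.94). The cause of these moves was not tested. Over all single called members, other settings kept the call for 606 values, 87 kept their sign but lost the call and 5 reversed. Leaving out 1 library kept 428 calls and lost 100.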
